A study of Mus musculus with 12 samples.

Results

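The secretases are the proteases that cut amyloid precursor protein (APP), and the 9 secretase genes described here were chosen by name from the genes of a mouse brain count table. All 9 were present among its 14881 genes: Adam10 and Adam17 for alpha-secretase, Bace1 and Bace2 for beta-secretase, and Psen2, Ncstn, Psenen, Aph1a and Aph1b for subunits of gamma-secretase. The series title frames the work around antibody treatment against amyloid beta and lymphatic vessels of the meninges.

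The study made 12 RNA libraries, 1 per mouse according to the series text, from male APPswe mice of 22 to 26 months in 4 groups of 3. All 12 mice are described as APPswe, which is a mutant human APP transgene. Its promoter is not given in the sources used here. Every mouse received 5 µL of an AAV1 vector, an adeno-associated virus, with a CMV promoter into the cisterna magna, and weekly intraperitoneal antibody at 40 mg/kg. The groups were mVEGF-C+mAdu (mice 10 to 12; vector for mouse vascular endothelial growth factor C, and mAducanumab, an antibody against aggregated amyloid beta), mVEGF-C+mIgG (mice 7 to 9; the same vector with control immunoglobulin), eGFP+mAdu (mice 4 to 6; vector for green fluorescent protein, with mAducanumab) and eGFP+mIgG (mice 1 to 3; both controls). No sample without a vector or without an antibody injection is among the 12.

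Library totals ran from 23213612 to 29295266 counted reads. The series text gives the tissue as right hippocampus and the sample labels name the brain meninges. In the libraries, the median level over 10 markers of CA pyramidal neurons was 84.7 to 94.7 CPM and over 9 dentate granule cell markers 41.0 to 57.9 CPM, against 3.70 to 7.59 CPM over 12 meningeal fibroblast markers. CPM is the read count relative to the TMM-scaled library total. Over the genes with more spread in a group than counting gives (chi-square p under 0.001), the library of mouse 12, 9, 6 or 3 held the middle value of its group in 82.7%, 78.5%, 80.3% and 64.5% of cases, against 7.04% to 20.8% for the other 8 libraries. For the 9 secretase genes these 4 libraries held the middle value in 15 of 36 combinations of gene and group. The tests count every library as its own mouse, and shared material between libraries would make their p-values smaller than they should be. Each called difference of a secretase gene or of a listed regulator is therefore also given without those 4 libraries. Calls of cell type markers are not. The fit without those libraries has fewer mice per group and larger SEs for the called differences. A call lost there therefore cannot tell shared material from the smaller number of mice. In bulk tissue, fewer cells of a type and less RNA per cell cannot be told apart.

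APP is a membrane protein that can be cut in alternative ways. Alpha-secretase cuts inside the amyloid beta sequence and so prevents its formation, whereas beta-secretase cuts at its start. The remaining stub is cut within the membrane by gamma-secretase, a complex of presenilin, nicastrin, PEN-2 and an APH-1 protein, which releases amyloid beta. The same enzymes also cut many other membrane proteins, among them Notch receptors and neuregulin 1.

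The difference that passed the test among these genes was in Aph1b, which has a close relative in the mouse genome, Aph1c, and the coding sequences are shown because they bear on how its reads could be counted. The first 60 coding bases are given 5′ to 3′ from GENCODE M21 transcripts on GRCm38, with capitals where a base differs from Aph1b at the same position:
Aph1b: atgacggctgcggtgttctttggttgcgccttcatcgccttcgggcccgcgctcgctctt
Aph1c: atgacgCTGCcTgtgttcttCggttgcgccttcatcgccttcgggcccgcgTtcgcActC
Aph1a: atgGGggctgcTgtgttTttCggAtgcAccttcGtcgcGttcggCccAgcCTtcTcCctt
In this stretch Aph1c differed from Aph1b at 9 of 60 bases and Aph1a at 15. Over the whole coding sequence Aph1b (774 bases) and Aph1c (777 bases) were identical at 745 of 774 aligned bases, or 96.3%. The longest run without a difference was 341 bases, from coding base 352 to 692 of Aph1b, and began as follows in both genes:
Aph1b and Aph1c: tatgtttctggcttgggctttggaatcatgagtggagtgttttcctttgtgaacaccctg
Of all windows of 50 bases in the longest Aph1b transcript, 956 of 4861 (19.7%) also occurred in an Aph1c transcript. A read from these windows matches both genes. How such reads were counted is not given in the sources used here, and the separate levels of Aph1b and Aph1c are uncertain. The other pairs of relatives differed more. Coding identity was 63.9% for Aph1a with Aph1b, 62.2% for Bace1 with Bace2 and 60.1% for Adam10 with Adam17, and these pairs shared 0 windows of 50 bases.

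The 9 genes lie on several chromosomes of GRCm38. Bace1 (ENSMUSG00000032086) spans 45838580 to 45864399 on chromosome 9, and Adam10 (ENSMUSG00000054693) spans 70678997 to 70780229 on the same chromosome. Aph1b (ENSMUSG00000032375) spans 66775202 to 66795490 on chromosome 9, next to Aph1c (ENSMUSG00000053040) from 66814994 to 66834726. Bace2 (ENSMUSG00000040605) lies on chromosome 16 with App (ENSMUSG00000022892), Adam17 (ENSMUSG00000052593) on chromosome 12, Aph1a (ENSMUSG00000015750) on chromosome 3 and Psenen (ENSMUSG00000036835) on chromosome 7. Psen2 (ENSMUSG00000010609) and Ncstn (ENSMUSG00000003458) lie on chromosome 1. Exons of 5 of the 9 overlap an exon of a measured protein-coding gene on the other strand: Bace1 with Rnf214 (15.4% of its exon bases), Aph1a with Car14 (12.9%), Psenen with U2af1l4 (9.33%), Ncstn with Copa (4.91%) and Adam17 with Iah1 (4.35%). Whether counting used the strand is not given in the sources used here. Part of these counts could belong to the neighbour.

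Levels were compared between genes as CPM per kb of annotated exon. The order depends on this scaling. In median CPM, Psenen (12.3, with 1.27 kb of exon) was below Ncstn (27.7), Adam17 (19.2), Psen2 (17.7) and Aph1a (16.8). The RNA was linearly amplified, and whether reads scale with exon length was not tested. Bace1 was the highest of the 9, with a median of 22.4 CPM per kb over the 12 mice (21.0 to 23.5). Adam10 followed with 16.6 CPM per kb (14.9 to 18.2), and their ranges did not overlap. Bace1 was 1.36 times Adam10 in the median mouse and above it in 12 of 12 mice. Aph1b (median 10.3 CPM per kb) and Psenen (9.65 CPM per kb) came next and did not separate: their ranges overlapped, and Aph1b was the higher in 8 of 12 mice.

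Below them stood Ncstn at a median of 6.97 CPM per kb, Aph1a at 4.88, Psen2 at 4.09, Adam17 at 2.68 and Bace2 at 0.490 CPM per kb, each without overlap with its neighbour in this order. Aph1a and Psen2 were the closest of these, with a lowest Aph1a value of 4.65 CPM per kb and a highest Psen2 value of 4.59 CPM per kb. Bace1 thus made up 96.8% to 98.5% of the summed level of the BACE pair in every mouse, and Adam10 84.3% to 88.2% of that of the ADAM pair. Among the APH-1 genes, Aph1b held 56.6% to 63.7%, Aph1a 26.5% to 32.5% and Aph1c 9.14% to 11.1% of the sum, with the limit on Aph1b and Aph1c given above.

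App itself stood far above its proteases, at a median of 399 CPM per kb, but 2 mice of eGFP+mAdu were low. Its level was 5238, 5507 and 5347 CPM in mVEGF-C+mAdu (mice 10 to 12), 4721, 4995 and 4786 CPM in mVEGF-C+mIgG (mice 7 to 9), 5487, 1342 and 3716 CPM in eGFP+mAdu (mice 4 to 6) and 5337, 5146 and 5225 CPM in eGFP+mIgG (mice 1 to 3). Mouse 5 was thus lower than all others and mouse 6 lower than the other 10. Per kb, App was 16.0 to 19.1 times Bace1 in 10 mice, 4.53 times in mouse 5 and 12.8 times in mouse 6. Whether reads of the human APPswe transgene were counted for App is not given in the sources used here. The App values may therefore not be those of the mouse gene alone. The transgene status of mice 5 and 6, both of eGFP+mAdu, was not tested. None of the secretase genes had its lowest value of all mice in mouse 5.

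**Figure D1:**
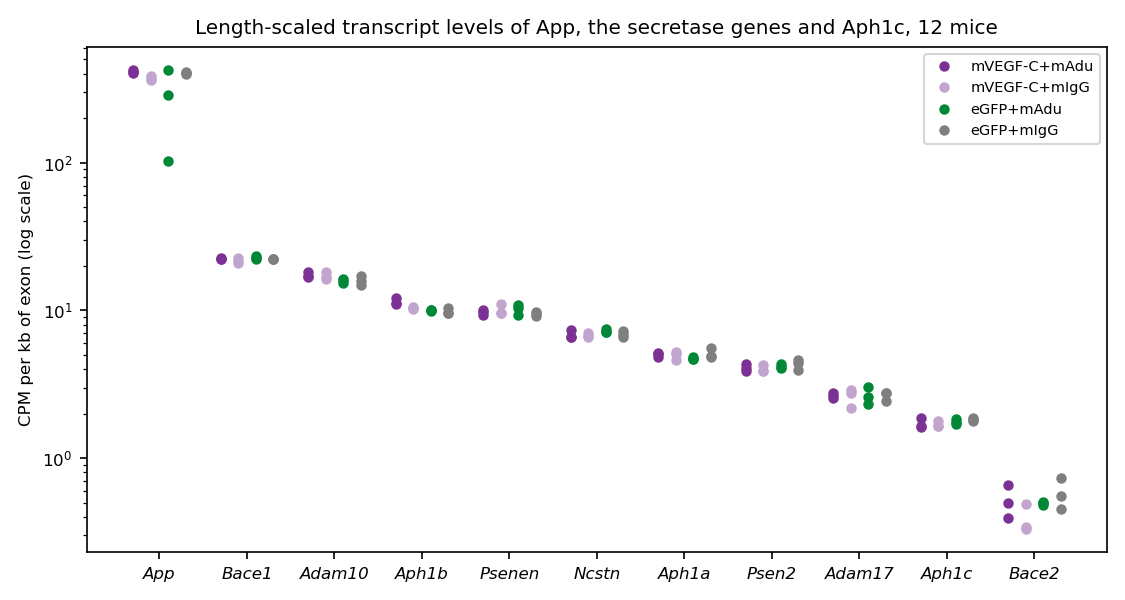
CPM per kb of exon (log axis) of App, the 9 secretase genes and Aph1c, with 1 point per mouse and columns for mVEGF-C+mAdu, mVEGF-C+mIgG, eGFP+mAdu and eGFP+mIgG from left to right within each gene. Bace1 (median 22.4) and Adam10 (16.6) lead the secretases, Bace2 (0.490) is the lowest, and App is low in 2 mice of eGFP+mAdu.

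Most secretase genes varied little between mice. The coefficient of variation of CPM over the 12 mice was 2.84% for Bace1, and 4.20% of all genes in the table varied as little or less. It was 4.54% for Ncstn, 5.48% for Aph1a, 5.70% for Psen2, 6.02% for Adam10, 6.31% for Psenen, 7.18% for Aph1b and 8.59% for Adam17, against a median of 6.93% over all genes. Bace2 was the variable member at 23.8%, a value that 93.2% of all genes did not exceed, with 68 to 160 reads per library, for which counting alone gives 9.93%. For Ncstn, Aph1a, Psen2 and Psenen the variation was close to counting error, which was 3.74%, 4.75%, 4.63% and 5.55%.

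Whether antibody or vector moved these levels was asked in 8 comparisons from 1 fit over all 14881 genes. They set mAdu against mIgG under each vector and mVEGF-C against eGFP under each antibody, and the combined treatment against both controls. The remaining 3 were the interaction and the antibody and vector effects averaged over the 2 levels of the other factor. Several of them share groups, so their values are not independent. Of 72 combinations of gene and comparison, 1 passed an adjusted p of 0.05: Aph1b rose with the combined treatment. The share of all genes that passed in either direction was 2.18% for mVEGF-C+mAdu against eGFP+mIgG, 0.208% for mAdu under mVEGF-C, 0.0336% for mAdu under eGFP, 0.0470% for mVEGF-C under mAdu and 0.0403% for mVEGF-C under mIgG. It was 0.0134% for the interaction, 0.571% for mAdu averaged over vectors and 0.390% for mVEGF-C averaged over antibodies. At an unadjusted p under 0.05 in the same quasi-likelihood fit, 2 of the 9 genes stood in the combined comparison (20.4% of all genes), 1 for mAdu under mVEGF-C (12.7%), 0 for mAdu under eGFP (9.21%), 2 for mVEGF-C under mAdu (14.3%) and 1 for mVEGF-C under mIgG (7.91%). It was 1 for the interaction (6.82%), 1 for the averaged antibody (15.5%) and 2 for the averaged vector (16.0%). These counts are near what the background shares give for 9 genes. The median log2 change over the 9 genes lay within 0.03 of 0 in each of the 8, beside a median over all genes of 0.00.

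**Figure D2:**
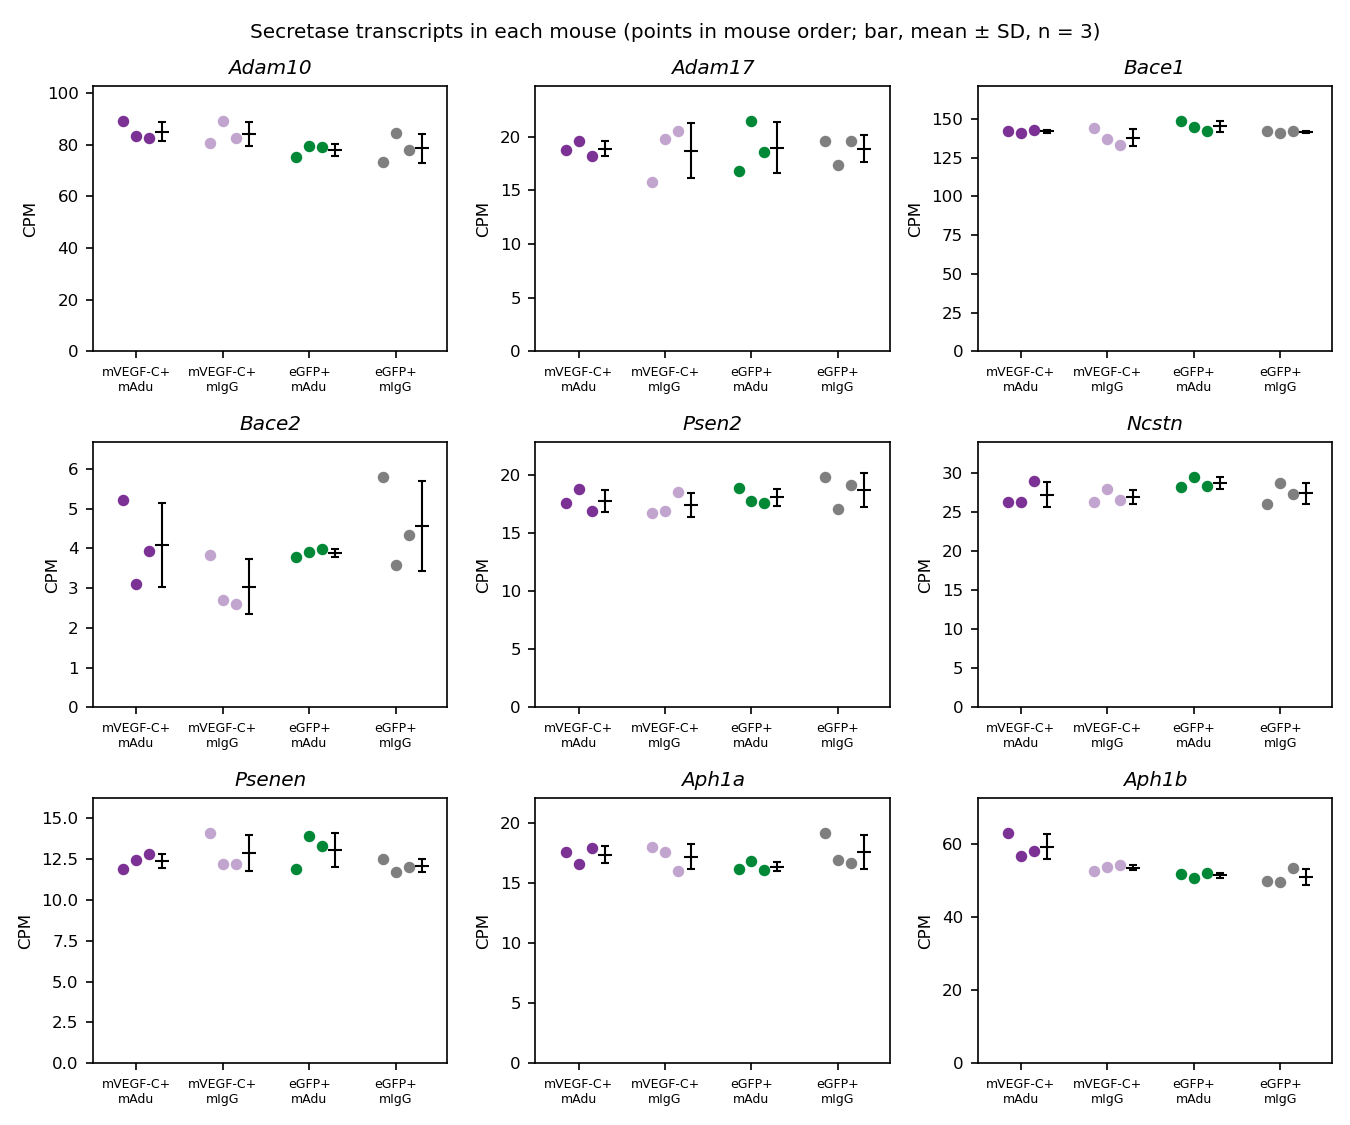
CPM of each secretase gene (vertical axis from 0) in the 4 groups, with 1 point per mouse in the order of mouse number and a bar for the mean ± SD (n = 3). Aph1b is highest in the 3 mVEGF-C+mAdu mice (56.7 to 63.2 CPM), and Bace2 spreads most within groups.

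The alpha-secretases come first. Adam10 encodes the metalloprotease that provides most alpha-secretase cleavage of APP in neurons. It had 89.3, 83.4 and 82.4 CPM in mVEGF-C+mAdu, 80.6, 89.3 and 82.6 CPM in mVEGF-C+mIgG mice, 75.4, 79.5 and 79.0 CPM in eGFP+mAdu, and 73.4, 84.6 and 77.9 CPM in eGFP+mIgG. The 3 mVEGF-C+mAdu mice were above the 3 eGFP+mAdu mice, whereas the mIgG groups overlapped. Adam10 and Aph1b were the 2 of 9 genes with all mVEGF-C+mAdu values above all eGFP+mAdu values, as were 11.5% of all genes. Under mIgG, 0 of the 9 had all mVEGF-C values above all eGFP values, against 6.38% of all genes.

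The group means of Adam10 were 85.1 ± 3.73 CPM in mVEGF-C+mAdu, 84.2 ± 4.55 CPM in mVEGF-C+mIgG, 78.0 ± 2.24 CPM in eGFP+mAdu and 78.7 ± 5.63 CPM in eGFP+mIgG (SD, n = 3 each). Averaged over antibodies, the difference between vectors was 0.11 on the log2 scale (SE 0.0381, 95% interval 0.03 to 0.19, or 2.27% to 14.4% in level), which did not pass (Benjamini-Hochberg adjusted p = 0.182 in the edgeR quasi-likelihood test). Between antibodies it was 0.00 (SE 0.0381, interval -0.08 to 0.08).

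Adam17 encodes the protease that releases tumour necrosis factor from cells and can also act on APP. Its mean was 18.9 ± 0.710 CPM in mVEGF-C+mAdu, 18.7 ± 2.57 CPM in mVEGF-C+mIgG, 19.0 ± 2.40 CPM in eGFP+mAdu and 18.9 ± 1.25 CPM in eGFP+mIgG (SD, n = 3 each). The groups overlapped in each of the 5 pairs compared, with mouse 7 lowest at 15.8 CPM and mouse 5 highest at 21.5 CPM. The 95% intervals for the averaged effects ran from -9.36% to 11.4% for the antibody and from -10.4% to 10.2% for the vector.

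Bace1 encodes the main beta-secretase of neurons, whose cut starts amyloid beta formation. It had 142, 141 and 143 CPM in mVEGF-C+mAdu, 144, 137 and 133 CPM in mVEGF-C+mIgG mice, 149, 145 and 142 CPM in eGFP+mAdu, and 142, 141 and 142 CPM in eGFP+mIgG. All 12 mice lay between 133 and 149 CPM. The eGFP+mAdu mice were just above the eGFP+mIgG mice, with a gap smaller than 1 CPM, and the other 4 pairs compared overlapped. Bace1 was the 1 gene of the 9 with all eGFP+mAdu values above all eGFP+mIgG values, as were 7.63% of all genes.

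Bace1 had the smallest standard errors of the 9. The averaged antibody effect was 0.04 on the log2 scale (SE 0.0262), with a 95% interval from -1.19% to 6.72% in level. The averaged vector effect was -0.04 (SE 0.0262), from -6.27% to 1.23%. For the combined treatment the interval ran from -5.28% to 5.63%. None passed, with adjusted p = 0.515, 0.501 and 0.997 in that order (edgeR quasi-likelihood test, Benjamini-Hochberg).

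Bace2 encodes a relative of BACE1 that cuts APP mainly inside the amyloid beta sequence and is low in brain. It had 5.22, 3.11 and 3.94 CPM in mVEGF-C+mAdu, 3.83, 2.70 and 2.59 CPM in mVEGF-C+mIgG mice, 3.78, 3.91 and 3.98 CPM in eGFP+mAdu, and 5.81, 3.58 and 4.34 CPM in eGFP+mIgG. Mice 1 and 10 were the highest and mice 8 and 9 the lowest, and each of the 5 pairs of groups compared overlapped.

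The difference of mVEGF-C+mIgG from eGFP+mIgG was -0.60 on the log2 scale for Bace2 (SE 0.206, 95% interval -1.04 to -0.17), and that of mVEGF-C+mAdu from mVEGF-C+mIgG was 0.44 (SE 0.210, interval -0.01 to 0.88). The interaction was 0.68 (SE 0.287, interval 0.07 to 1.29). These Bace2 values moved with single mice: the first was -0.39 without mouse 1 and -0.80 without mouse 7, the second 0.22 without mouse 10 and 0.63 without mouse 7, and the interaction ran from 0.47 (without mouse 1 or 10) to 0.88 (without mouse 7). None passed over all genes, with adjusted p = 0.554, 0.405 and 0.705 in that order (edgeR quasi-likelihood test, Benjamini-Hochberg). With limma-voom and sample quality weights, Bace2 passed in both comparisons under a single vector or antibody, where that method called 937 and 1234 of all genes, against 6 and 31 by edgeR.

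Gamma-secretase subunits were taken from the catalytic core outwards. Psen2 encodes presenilin 2, a catalytic subunit of the complex. Its mean was 17.8 ± 0.915 CPM in mVEGF-C+mAdu, 17.4 ± 1.01 CPM in mVEGF-C+mIgG, 18.1 ± 0.677 CPM in eGFP+mAdu and 18.7 ± 1.47 CPM in eGFP+mIgG (SD, n = 3 each). All 5 pairs of groups compared overlapped, and the 95% interval of the averaged vector effect was -11.2% to 2.78%.

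Ncstn encodes nicastrin, the subunit that receives substrates. It averaged 27.3 ± 1.62 CPM in mVEGF-C+mAdu, 27.0 ± 0.894 CPM in mVEGF-C+mIgG, 28.8 ± 0.726 CPM in eGFP+mAdu and 27.4 ± 1.35 CPM in eGFP+mIgG (SD, n = 3 each). Psenen encodes PEN-2, which is needed for the maturation of presenilin, and averaged 12.4 ± 0.486 CPM in mVEGF-C+mAdu, 12.8 ± 1.10 CPM in mVEGF-C+mIgG, 13.0 ± 1.01 CPM in eGFP+mAdu and 12.1 ± 0.373 CPM in eGFP+mIgG. Neither gene separated any of the 5 pairs of groups compared. For the averaged antibody effect the 95% interval was -2.91% to 9.38% for Ncstn and -6.27% to 10.8% for Psenen.

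Aph1a encodes an APH-1 scaffold protein of the complex. It had 17.6, 16.6 and 17.9 CPM in mVEGF-C+mAdu, 18.0, 17.6 and 16.0 CPM in mVEGF-C+mIgG mice, 16.2, 16.8 and 16.1 CPM in eGFP+mAdu, and 19.2, 16.9 and 16.7 CPM in eGFP+mIgG. The 5 pairs of groups compared overlapped, and the combined treatment differed from both controls by -0.02 on the log2 scale (SE 0.0692, 95% interval -0.17 to 0.13).

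Aph1b encodes the alternative scaffold, and it was the member that passed the test. It had 63.2, 56.7 and 58.2 CPM in mVEGF-C+mAdu, 52.8, 53.7 and 54.3 CPM in mVEGF-C+mIgG mice, 51.8, 50.8 and 52.0 CPM in eGFP+mAdu, and 49.9, 49.8 and 53.5 CPM in eGFP+mIgG. The 3 mVEGF-C+mAdu mice were higher than all 9 others, an order whose share among all genes was not counted. The other 3 groups lay close together, with eGFP+mAdu overlapping eGFP+mIgG and mVEGF-C+mIgG above eGFP+mIgG in 2 of 3 mice. Means were 59.4 ± 3.40 CPM in mVEGF-C+mAdu, 53.6 ± 0.747 CPM in mVEGF-C+mIgG, 51.5 ± 0.657 CPM in eGFP+mAdu and 51.1 ± 2.09 CPM in eGFP+mIgG (SD, n = 3 each).

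With the combined treatment Aph1b rose by 0.22 on the log2 scale against both controls (SE 0.0467, 95% interval 0.12 to 0.32), or 16.2% (Benjamini-Hochberg adjusted p = 0.0320 in the edgeR quasi-likelihood test). It was 1 of 177 genes, 1.19% of those tested, that rose in this comparison, and 13.9% of all genes had mVEGF-C+mAdu mice all above the eGFP+mIgG mice. The share with mVEGF-C+mAdu mice all above mVEGF-C+mIgG mice was 8.37%, and Aph1b was the 1 gene of the 9 among them. Against eGFP+mAdu the difference was 0.20 (SE 0.0466, adjusted p = 0.0961 in the edgeR quasi-likelihood test) and against mVEGF-C+mIgG it was 0.15 (SE 0.0466, adjusted p = 0.195 by the same test), and neither passed. Nor did the interaction, at 0.14 (SE 0.0662, interval -0.00 to 0.28, adjusted p = 0.744 in the edgeR quasi-likelihood test). The values of mVEGF-C+mAdu enter all these comparisons.

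The call rests on small margins. Without mice 3, 6, 9 and 12 the Aph1b difference was 0.27 (SE 0.0683, against 0.0467 with all mice). Adjusted p in that fit, with 2 mice per group, was 0.560 (edgeR quasi-likelihood test), and 2 of all genes passed. Leaving out 1 mouse at a time gave 0.17 (without mouse 10) to 0.25, and the call was lost without mouse 1, 2, 3, 6, 9, 10 or 12, with adjusted p = 0.155, 0.0536, 0.0507, 0.0548, 0.0503, 0.133 and 0.108 in that order (edgeR quasi-likelihood test). It held without mouse 4, 5, 7, 8 or 11. With all mice Aph1b also passed by DESeq2's Wald test (adjusted p = 0.0123) and by limma-voom with quality weights (adjusted p = 0.00712). Those tools called 455 and 2660 of all genes in this comparison, against 324 by edgeR.

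Markers of other cell types differed in the same comparison, in which 2.18% of all genes passed. Without mice 3, 6, 9 and 12 it was 2 of all genes, and the marker calls are not given for that fit. The summed level of 12 microglia markers was 518 to 526 CPM in mVEGF-C+mAdu and 561 to 619 CPM in eGFP+mIgG, and 3 of the 12 fell. That of 6 measured choroid plexus markers was 42.8 to 45.0 CPM in mVEGF-C+mAdu and 59.2 to 105 CPM in eGFP+mIgG. Of the 6, 1 fell: Ttr, which alone averaged 16.6 CPM in mVEGF-C+mAdu and 51.6 CPM in eGFP+mIgG. The median log2 change of the 6 was -0.29, with 0 positive. Of 8 endothelial markers (110.4 to 130.0 CPM in mVEGF-C+mAdu and 104 to 110.1 CPM in eGFP+mIgG) 1 rose, and of 10 astrocyte markers (4320.0 to 4572 and 4133 to 4669 CPM in the same order) 1 fell. In 3 further lists the summed levels did not overlap, although 0 of their genes passed by the edgeR quasi-likelihood test. Those of 9 dentate granule markers were 511 to 535 CPM in mVEGF-C+mAdu and 576 to 578 CPM in eGFP+mIgG, and those of 12 meningeal fibroblast markers 106 to 114 CPM in mVEGF-C+mAdu and 123 to 155 CPM in eGFP+mIgG. Those of 8 inhibitory neuron markers were 720.1 to 770.4 CPM in mVEGF-C+mAdu and 690.5 to 719 CPM in eGFP+mIgG. No marker of these lists was under 1 CPM in all mice. Their part in the Aph1b result was not tested.

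The neighbour Aph1c passed in none of the 8 comparisons. It averaged 8.94 ± 0.748 CPM in mVEGF-C+mAdu, 8.84 ± 0.334 CPM in mVEGF-C+mIgG, 9.19 ± 0.338 CPM in eGFP+mAdu and 9.52 ± 0.281 CPM in eGFP+mIgG (SD, n = 3 each). The combined treatment differed from both controls by -0.09 on the log2 scale for Aph1c (SE 0.0820, 95% interval -0.27 to 0.08). Aph1b made up 63.7%, 63.1% and 62.2% of the length-scaled sum of Aph1a, Aph1b and Aph1c in mVEGF-C+mAdu, 59.8%, 60.2% and 62.5% in mVEGF-C+mIgG, 61.1%, 59.5% and 61.0% in eGFP+mAdu, and 56.6%, 59.2% and 60.7% in eGFP+mIgG. The share was chosen after the Aph1b values were seen and is given as a description.

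**Figure D3:**
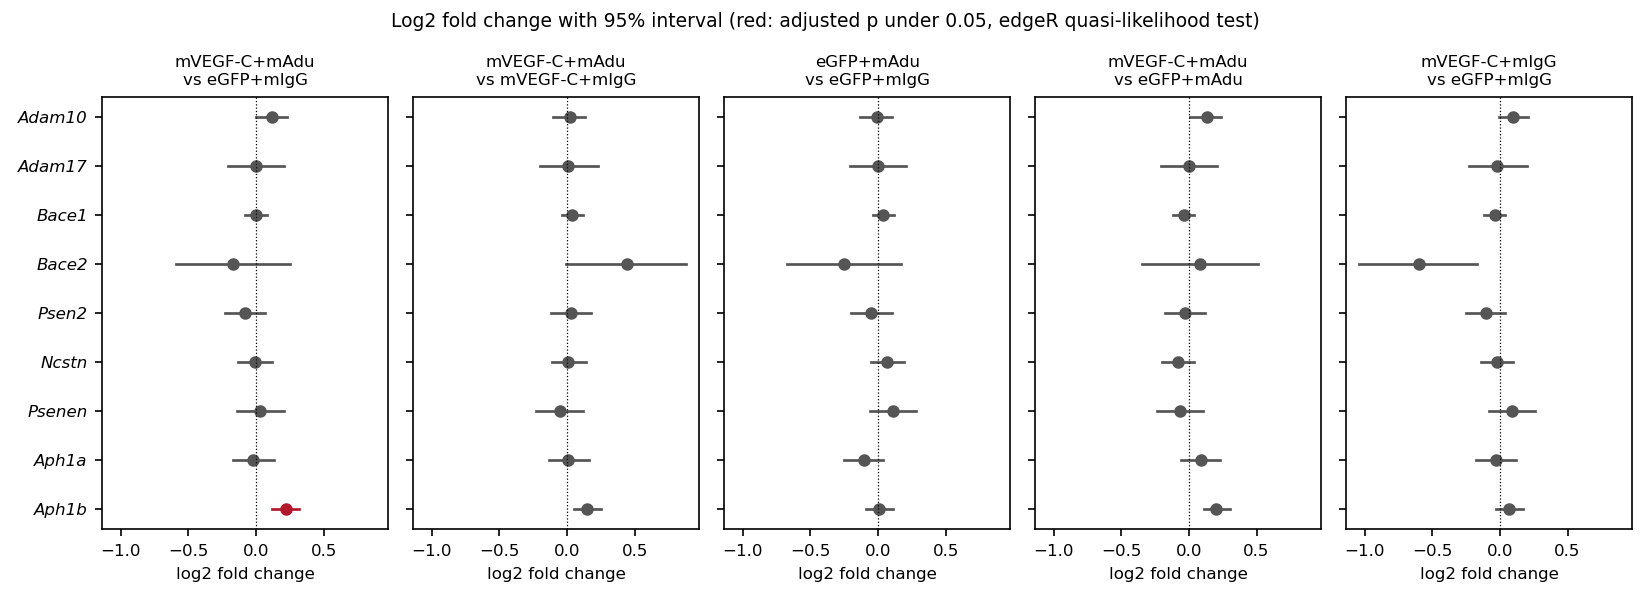
Log2 fold change (points) with 95% interval (lines) for each secretase gene in 5 comparisons, each titled with the group on top of the ratio first; red marks an adjusted p under 0.05. Aph1b with the combined treatment (0.22, interval 0.12 to 0.32) is the red point, Bace1 has the narrowest intervals and Bace2 the widest.

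Genes whose profile over the 12 mice came closest to a member were found by the root-mean-square difference of centred log2 CPM, where a member's own root-mean-square deviation sets the scale. For Aph1b (own deviation 0.0955) these were Cdkn1b, a cell-cycle inhibitor, at 0.0363 and Atad2b at 0.0395. For Adam10 (0.0829) they were Enpp4 at 0.0267 and Mbnl1, a splicing regulator, at 0.0327. For Bace1 (0.0394) they were Cbx6 at 0.0202 and Pfkm, muscle-type phosphofructokinase, at 0.0203, and for Bace2 (0.318) Cpne2 at 0.134 and Rxfp3 at 0.148. The closest genes for the others were Usp28 for Adam17 (0.0661), Trim26 for Psen2 (0.0490), Arl8a for Ncstn (0.0326), Zfp831 for Psenen (0.0477) and Prpf39 for Aph1a (0.0378).

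Regulators and substrates of the secretases were counted in lists chosen by their known roles or gene family. The median log2 change over the 8 comparisons ran from -0.04 to 0.02 for the substrates, -0.05 to 0.02 for alpha-secretase partners, -0.03 to 0.04 for the beta-secretase list, -0.07 to -0.02 for gamma-secretase modulators and -0.01 to 0.01 for APP adaptors, beside 0.00 over all genes. Over all genes, 2.61% passed in at least 1 of the 8 comparisons by edgeR, 4.84% by DESeq2 and 31.4% by limma-voom, and 40.2% had an unadjusted p under 0.05 in at least 1 in the edgeR fit. Of 24 measured substrates, among them App, Notch1 and Nrg1, 0 passed in any of the 8 comparisons by the edgeR quasi-likelihood test, 0 by DESeq2 and 8 by limma-voom, and 9 had an unadjusted p under 0.05 in at least 1 of them, close to the shares of all genes. The substrates with the smallest unadjusted p were Tgfa, a growth factor shed by ADAM17, at -0.15 on the log2 scale for the averaged antibody (SE 0.0455), the receptor Epha4 at 0.11 for the averaged vector (SE 0.0350), and Il6ra, an interleukin 6 receptor subunit, at -0.43 for mVEGF-C under mIgG (SE 0.147). App did not pass in any comparison. It differed by 0.61 on the log2 scale between mVEGF-C+mAdu and eGFP+mAdu (SE 0.291, 95% interval -0.01 to 1.23), a value that holds the low App of mice 5 and 6. All groups share the spread estimate, so these mice also enter the SE of comparisons without eGFP+mAdu. All mVEGF-C+mIgG mice (4721 to 4995 CPM) were below the mVEGF-C+mAdu (5238 to 5507 CPM) and eGFP+mIgG mice (5146 to 5337 CPM). The share of all genes with this order was not counted. App differed by 0.15 for mAdu under mVEGF-C and -0.12 for mVEGF-C under mIgG (SE 0.290 each). Fits of only the groups compared gave smaller SEs for both, and App did not pass there either.

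Of 13 measured genes listed as alpha-secretase partners and inhibitors, 1 fell with the vector averaged over antibodies by the edgeR quasi-likelihood test. By the same test 1 fell with the combined treatment. In at least 1 of the 8 comparisons 3 of the 13 passed by DESeq2 and 7 by limma-voom, and 6 had an unadjusted p under 0.05. Timp2 encodes a tissue inhibitor of metalloproteinases and was listed as a member of that family. Whether it acts on ADAM10 or ADAM17 was not tested, so its change is not a measure of alpha-secretase inhibition. It had 125, 126 and 122 CPM in mVEGF-C+mAdu, 112, 119 and 114 CPM in mVEGF-C+mIgG mice, 143, 129.8 and 139 CPM in eGFP+mAdu, and 137, 128 and 137 CPM in eGFP+mIgG. All 6 mVEGF-C mice were below all 6 eGFP mice, and the share of all genes with this order was not counted. The averaged vector effect was -0.18 on the log2 scale (SE 0.0308; Benjamini-Hochberg adjusted p = 0.0192 in the edgeR quasi-likelihood test), and 21 of all genes (0.141%) fell in this comparison. Without mice 3, 6, 9 and 12 it was -0.16 (adjusted p = 0.816, edgeR quasi-likelihood test). Choroid plexus markers, whose 6 measured genes include Ttr, summed to 42.8 to 45.0 CPM in mVEGF-C+mAdu, 51.8 to 57.7 CPM in mVEGF-C+mIgG, 74.5 to 90.7 CPM in eGFP+mAdu and 59.2 to 105 CPM in eGFP+mIgG. Within these sums Ttr alone averaged 16.6, 25.2, 56.2 and 51.6 CPM in the same order of groups. For the averaged vector the median log2 change of the 6 was -0.14, with 1 of 6 positive. Only Ttr passed among them (-1.39, SE 0.169). Myelin markers, 12 genes, summed to 4765 to 4859.9, 4864 to 5917, 4078 to 5042 and 4439 to 5075 CPM in that order. Their median log2 change for the averaged vector was 0.11, with 12 of 12 positive, and 1 of them, Mobp, rose. Meningeal fibroblast markers, 12 genes, summed to 106 to 114, 78.9 to 131, 122 to 179 and 123 to 155 CPM in that order. For the averaged vector their median log2 change was -0.42, with 0 of 12 positive and 0 passed by the edgeR quasi-likelihood test. The part of these markers in the Timp2 result was not tested. The call was also lost without mouse 1, 3, 4, 6, 9 or 12, with adjusted p = 0.0590, 0.0624, 0.0538, 0.0746, 0.0827 and 0.0808 in that order (edgeR quasi-likelihood test).

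Rhbdf1 encodes iRhom1, an inactive rhomboid protein that helps ADAM17 mature. It had 6.95, 8.13 and 7.89 CPM in mVEGF-C+mAdu, 9.21, 8.11 and 8.27 CPM in mVEGF-C+mIgG mice, 8.83, 8.44 and 7.87 CPM in eGFP+mAdu, and 10.5, 9.95 and 9.43 CPM in eGFP+mIgG. All 3 eGFP+mIgG mice were above the 9 others, and the share of all genes with this order was not counted. With the combined treatment it changed by -0.38 on the log2 scale (SE 0.0907; Benjamini-Hochberg adjusted p = 0.0416 in the edgeR quasi-likelihood test), and without mice 3, 6, 9 and 12 the difference was -0.44 (adjusted p = 0.560, edgeR quasi-likelihood test). Tspan5, a tetraspanin that binds ADAM10, differed by 0.11 with the averaged vector (SE 0.0277) and did not pass (adjusted p = 0.0892, edgeR quasi-likelihood test).

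Of 11 genes for assembly and modulation of gamma-secretase, 2 fell with the combined treatment and 0 passed in the other 7 comparisons by the edgeR quasi-likelihood test. By DESeq2 and by limma-voom 2 of the 11 passed in at least 1 comparison, and both tools also made calls outside the combined one. Ifitm3, an interferon-induced membrane protein that binds gamma-secretase, had 4.34, 4.61 and 4.23 CPM in mVEGF-C+mAdu, 4.81, 7.75 and 6.98 CPM in mVEGF-C+mIgG mice, 6.58, 7.55 and 6.41 CPM in eGFP+mAdu, and 6.03, 7.39 and 7.23 CPM in eGFP+mIgG. The mVEGF-C+mAdu mice were the lowest of all 12, and the share of all genes with this order was not counted. Arrb2, a beta-arrestin, had 31.5, 34.8 and 31.6 CPM in mVEGF-C+mAdu, 36.2, 33.0 and 35.3 CPM in mVEGF-C+mIgG mice, 38.8, 34.4 and 36.2 CPM in eGFP+mAdu, and 40.4, 37.9 and 40.1 CPM in eGFP+mIgG. The mVEGF-C+mAdu mice were below the eGFP+mIgG mice, and the share of all genes with this order is not given here. Both other groups overlapped the mVEGF-C+mAdu group.

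With the combined treatment Ifitm3 changed by -0.64 on the log2 scale (SE 0.152, adjusted p = 0.0395) and Arrb2 by -0.27 (SE 0.0592, adjusted p = 0.0319), both Benjamini-Hochberg adjusted in the edgeR quasi-likelihood test. Without mice 3, 6, 9 and 12 the values were -0.58 and -0.24, with adjusted p = 0.560 for each (edgeR quasi-likelihood test). Ifitm3 also belongs to the interferon response, and the lower microglia markers of mVEGF-C+mAdu given above stand beside both values, and their part was not tested. Gsap, which encodes a gamma-secretase activating protein, differed by -0.14 for the averaged antibody (SE 0.0685) and did not pass.

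In this comparison Rhbdf1, Ifitm3 and Arrb2 were among 147 genes, 0.988% of those tested, that fell. Their calls were also lost when single mice were left out. For Ifitm3 and Rhbdf1 this was mouse 1, 2, 3, 6, 9, 10, 11 or 12, with adjusted p = 0.0570 to 0.145 and 0.0529 to 0.180. For Arrb2 it was mouse 1, 3, 6, 9, 10 or 12, with adjusted p = 0.0503 to 0.142 (edgeR quasi-likelihood test).

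Of 17 genes for beta-secretase trafficking and inhibition, 0 passed by the edgeR quasi-likelihood test, 0 by DESeq2 and 5 by limma-voom in any comparison, and 9 had an unadjusted p under 0.05 in at least 1, to be read beside 31.4% of all genes by limma-voom and 40.2% unadjusted. Sorl1, a sorting receptor for APP, differed by 0.11 on the log2 scale (SE 0.0302), and Gga2, a sorting adaptor, by -0.11 (SE 0.0409), both for the averaged vector. Rtn2, a reticulon, differed by 0.08 for the averaged antibody (SE 0.0306). Of 18 APP adaptors and trafficking genes, 0 passed by the edgeR quasi-likelihood test, 0 by DESeq2 and 9 by limma-voom, and 10 had an unadjusted p under 0.05 in at least 1 comparison, beside the same 31.4% and 40.2% of all genes. Rab11a, a GTPase of recycling endosomes, differed by 0.12 with the combined treatment (SE 0.0408). Appbp2 differed by 0.09 (SE 0.0337) and Cd2ap by -0.12 (SE 0.0466) for the averaged antibody.

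**Figure D4:**
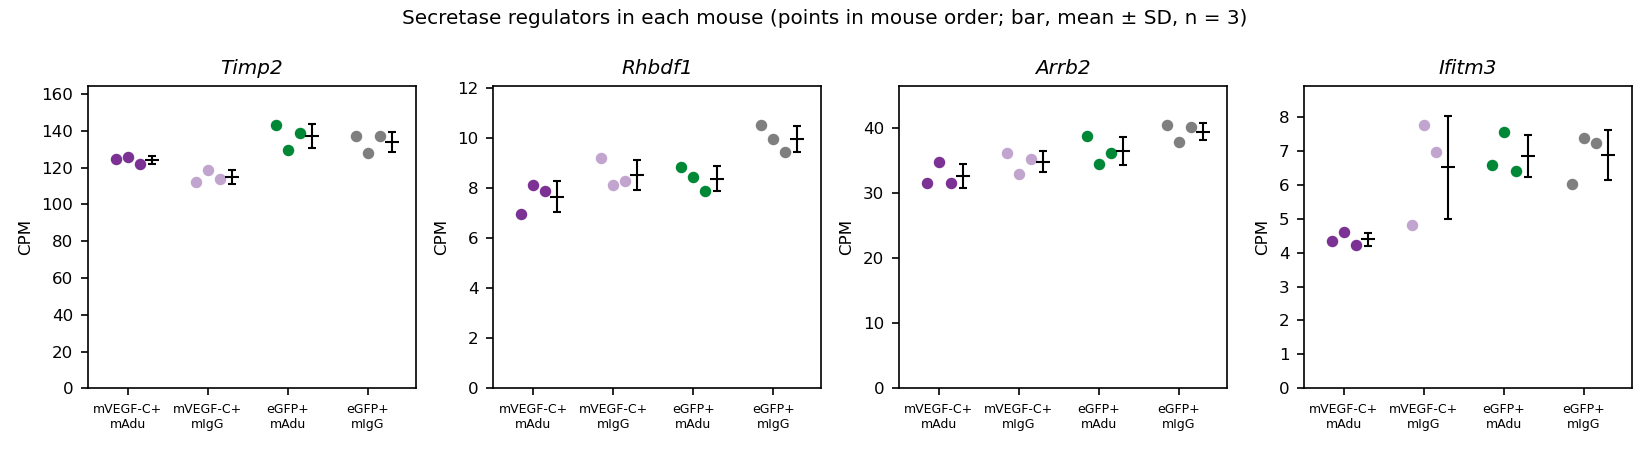
CPM (vertical axis from 0) of Timp2, Rhbdf1, Arrb2 and Ifitm3 in the 4 groups, with 1 point per mouse in the order of mouse number and a bar for the mean ± SD (n = 3). Timp2 is lower in both mVEGF-C groups, and Ifitm3 is lowest in the mVEGF-C+mAdu mice (4.23 to 4.61 CPM).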

How the data were processed

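Raw read counts per gene were deposited by the authors for 12 libraries, with no normalization. The submitters' processing notes list STAR as a tool, with FastQC, Trim Galore, edgeR, and Subread with featureCounts, and name build mm10. Sources used here do not give the annotation, the strand setting or the treatment of multi-mapped reads. Per the labels' protocols, RNA was extracted with the PicoPure kit and linearly amplified. GENCODE M21 (GRCm38, the build mm10 names) supplied symbols for 14797 of 14881 identifiers, exon lengths and coding sequences.

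The model was a quasi-likelihood fit in edgeR (version 4.0.16, R 4.3.3; TMM scaling, filterByExpr, which removed no gene, 1 mean per group, all 12 libraries). Contrasts were tested two-sided with the quasi-likelihood test and adjusted by Benjamini-Hochberg over all 14881 genes, at a threshold of 0.05. Intervals are 95%. CPM values are given as mean ± SD with n = 3. Library totals of 23213612 to 29295266 reads set the counting error. The lowest gene total was 147 reads, so very low genes are not among those tested.

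Alternatives were DESeq2 size factors, DESeq2 1.42.0, limma-voom 3.58.1 with quality weights, other filters, fits of the compared groups, and libraries left out. The text names all members, App, each listed gene that passed, and up to 3 genes per list with the smallest p; cell type marker lists are given as counts and summed levels. The members, lists and tests were chosen with earlier results of these data known.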

Additional observations from a re-analysis of the deposited data

How the results depend on the processing

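No paired analysis was possible because mice are numbered 1 to 12 with no number shared between groups. DESeq2 size factors changed no call among the 9 genes. The fit without a filter was the same fit, since the filter removed no gene. Fits of the 2 groups compared changed none in the 5 comparisons where they apply. The count of secretase genes that passed was 1 for the combined treatment and 0 in the other 7 comparisons. With the combined treatment it was 0 without mice 3, 6, 9 and 12, and 0 to 1 when 1 mouse was left out. For mVEGF-C under mAdu it was 1 (Aph1b) by DESeq2's Wald test and 1 (Aph1b) by limma-voom. By limma-voom it was also 1 (Bace2) for mAdu under mVEGF-C, 1 (Bace2) for mVEGF-C under mIgG, and 3 (Adam10, Aph1b and Bace2) for the averaged vector. Of the 72 log2 changes, the sign differed in 14 by limma-voom, in 8 without mice 3, 6, 9 and 12, and in 4 of 64 with a minimum of 5 CPM on average, which leaves out Bace2; none of these had passed, and their largest size was 0.05. Among 864 values with 1 mouse left out the sign differed in 78, for differences of at most 0.17 with all mice, none of which had passed. Counts over all genes moved more. For the combined treatment 324 genes passed, against 455 by DESeq2, 2660 by limma-voom, 610 in the fit of 2 groups, 2 without mice 3, 6, 9 and 12, and 12 (without mouse 12) to 594 (without mouse 7) with 1 mouse left out. For the averaged vector 58 passed, against 155, 1789, no fit of 2 groups, 0, and 4 (without mouse 9) to 253 (without mouse 7). For mAdu under mVEGF-C 31 passed, against 126, 1234, 6, 0, and 2 to 138. For mAdu under eGFP 5 passed, against 47, 507, 7, 2, and 4 to 35. For mVEGF-C under mAdu 7 passed, against 119, 970, 62, 0, and 0 to 110. For mVEGF-C under mIgG 6 passed, against 20, 937, 2, 2, and 1 to 52. For the interaction 2 passed, against 8, 220, no fit of 2 groups, 0, and 0 to 36, and for the averaged antibody 85, against 237, 1681, no fit of 2 groups, 1, and 9 to 172. The cause was not tested. All 36 group means in CPM moved by less than their SD with DESeq2 size factors. Depth limits Bace2 most, at 68 to 160 reads per library.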
